A study of Arabidopsis thaliana with 6 samples.

Results

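The class II trehalose phosphate synthase genes of Arabidopsis thaliana, TPS5 to TPS11, make up 7 of the 28309 loci that had a probe of their own on the arrays. They were taken by locus identifier, and all 7 were found. Every one of their probes was well above background on all 6 arrays, so all 7 genes were tested. RNA was read on 1-colour Agilent arrays from leaf 3 or 4 of soil-grown rosettes, for 3 genotypes, each with 2 samples that the design text calls independent and that were hybridised to 1 array apiece. Col is the wild type. The mutants, ore15-1D and ore15-2, are altered at the locus AT1G31040 (ORE15), which encodes a zinc-binding protein of the plant-specific PLATZ family. By the known use of these lines, ore15-1D is a dominant allele with raised ORE15 RNA and ore15-2 a loss-of-function allele, and each allele is represented here by 1 line. All plants grew for 13 days in cycles of 16 h light and 8 h dark, and the leaves were 4 days old when taken 5 h after light-on. No other treatment is named for any genotype.

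Trehalose 6-phosphate is a scarce sugar phosphate that follows the sucrose content of plant cells and acts as a signal of sugar supply. Trehalose phosphate synthase (TPS) makes it, trehalose-6-phosphate phosphatase (TPP) removes its phosphate, and trehalase splits the trehalose that results. TPS1, of class I, is the main active synthase in leaves. Class II proteins carry a synthase-like and a phosphatase-like domain, are generally found to lack synthase activity, and several bind SnRK1, the protein kinase that acts when energy is short. At the RNA level TPS5 is known as a gene that sugar induces, and TPS8 to TPS11 as genes that sugar represses and that rise in the dark or in starvation. TPS6 is known for a role in cell shape and leaf trichome branching, and TPS5 for a role in heat tolerance.

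The ORE15 probe gave log2 signals of 2.75 and 2.66 relative to the array's 75th percentile in ore15-1D, -4.90 and -4.79 in Col, and -6.38 and -8.44 in ore15-2, the last not well above background. That percentile, which sets the scale of every level below, was 1249 and 1338 for ore15-1D, 927 and 859 for Col, and 809 and 747 for ore15-2. Both ore15-1D arrays shared slide 1 with Col replicate 1, and both ore15-2 arrays shared slide 2 with Col replicate 2. All 5 mesophyll markers were well above background on 6 arrays, and their summed linear signal, in multiples of the 75th percentile, was 1056 to 1193 in ore15-1D, 1686 to 1868 in Col and 1932 to 2132 in ore15-2. The meristem markers STM, WUS, CLV3 and KNAT1, the floral markers AP3 and AG, and the synthase genes TPS2, TPS3 and TPS4 were not well above background on any array. The floral marker AP1 was so on 1 ore15-2 array alone, and the seed marker OLEO1 on Col replicate 2 alone.

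Each gene was read by 1 probe, or by 2 for TPS7, TPS10 and TPS11, all of which match transcript sequence of their own locus only. In TAIR10 coordinates, the probe of TPS5 (AT4G17770) lies at chr4:9879986-9880045, that of TPS6 (AT1G68020) at chr1:25500150-25500209 and that of TPS7 (AT1G06410) at chr1:1958083-1958142. The probe of TPS8 (AT1G70290) lies at chr1:26471322-26471381, that of TPS9 (AT1G23870) at chr1:8435445-8435504, that of TPS10 (AT1G60140) at chr1:22177305-22177364 and that of TPS11 (AT2G18700) at chr2:8111728-8111787. They lie in exons, since they were matched to transcripts, but the sources used here do not tell coding from untranslated sequence. A probe's brightness depends on its own sequence, so levels are compared between genotypes for 1 gene and never between genes.

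Setting ore15-1D against Col asks what a raised ORE15 level goes with in this gene family. TPS5 and TPS6 rose in ore15-1D, by 1.46-fold and 1.28-fold. TPS7, TPS8, TPS10 and TPS11 fell, to 0.822, 0.577, 0.630 and 0.501 of the Col level, and TPS9 gave 0.834 and did not pass. The words rose, fell and changed are kept for an adjusted p below 0.05 in a two-sided limma test over all genes. Thus 6 of 7 genes changed, 2 higher and 4 lower, against a background of 40.6% of all 20272 genes tested (18.6% higher and 22.0% lower). The split of calls over all genes, 3769 higher and 4468 lower, was 4657 and 3687 after quantile normalization. The median log2 change was -0.28 over the 7 genes and -0.01 over all genes. In whole leaves fewer cells of a type and less RNA per cell cannot be told apart.

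**Figure D1:**
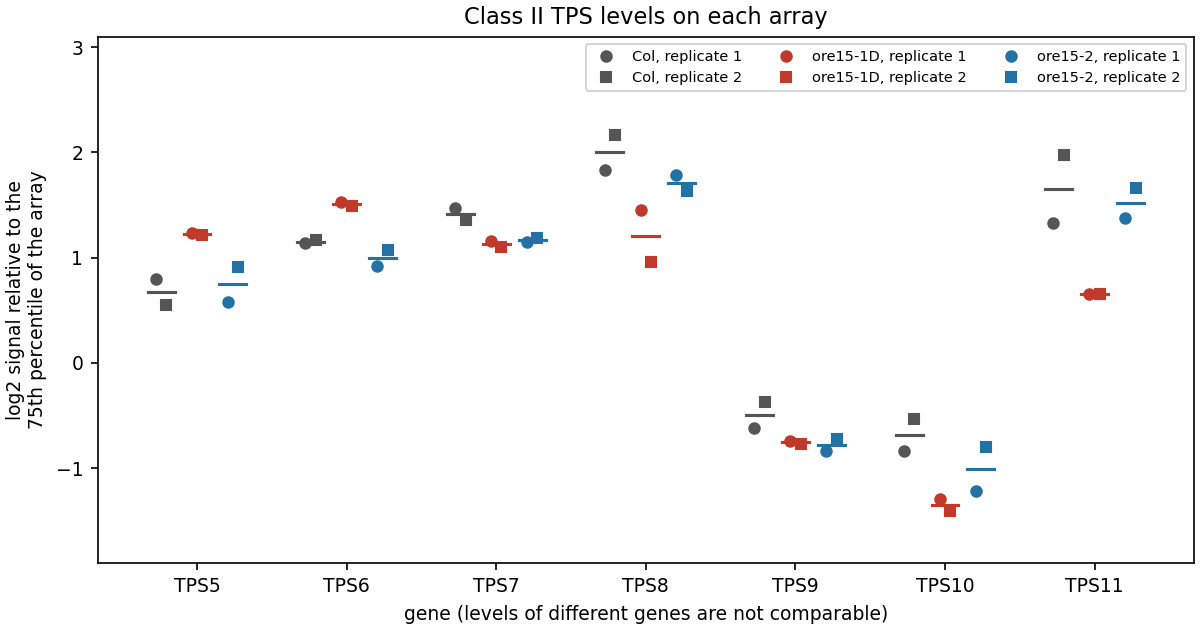
Log2 signal of each class II TPS gene on each array, relative to the 75th percentile of that array, with a bar at the mean of each genotype. On the ore15-1D arrays (red) TPS5 and TPS6 lie above both Col arrays (grey), and TPS7 to TPS11 lie below them. The 2 Col arrays differ most for TPS11 (1.33 and 1.98).

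TPS5, the sugar-inducible member, had log2 levels of 0.80 and 0.55 in Col and 1.23 and 1.21 in ore15-1D. Both ore15-1D arrays lay above both Col arrays, and in ore15-2 the levels of 0.58 and 0.91 overlapped those of Col. The change in ore15-1D was 0.55 ± 0.15 (standard error, SE, n = 2 arrays per genotype; limma, adjusted p = 0.0427). TPS6, which shapes cells and trichomes, had levels of 1.14 and 1.16 in Col and 1.53 and 1.49 in ore15-1D, a rise of 0.36 ± 0.09 (limma, adjusted p = 0.0328). Its ore15-2 levels of 0.92 and 1.07 were the lowest of the 3 genotypes, so that ore15-1D, Col and ore15-2 followed each other without overlap. The step from Col down to ore15-2 did not pass. Before scaling, the signals of TPS5 (2933 and 3103 against 1611 and 1258) and TPS6 (3609 and 3754 against 2038 and 1926) were also higher in ore15-1D than in Col.

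TPS7 had levels of 1.47 and 1.35 in Col and 1.16 and 1.10 in ore15-1D. Its fall of 0.28 (SE 0.08) passed by the smallest margin of the 7 (limma, adjusted p = 0.0499). Before scaling its signal was higher in ore15-1D (2782 and 2873) than in Col (2565 and 2198), the opposite of the direction after scaling. The change was -0.26 after quantile normalization, where it did not pass, and -0.34 in the authors' deposited table. It was 0.01 after normexp background correction with the 75th percentile, a setting that moved the median of all genes to -0.25. The second TPS7 probe, at chr1:1957551-1957610, had levels of 0.34 and 0.50 in Col and 0.07 and -0.06 in ore15-1D. In a fit over all 31249 probes that passed the filter it gave -0.42 ± 0.10 (limma, adjusted p = 0.0348), while the first probe there missed the threshold (adjusted p = 0.0594).

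TPS8 had levels of 1.84 and 2.17 in Col and 1.46 and 0.96 in ore15-1D, so that the ore15-1D arrays differed from each other by more than the Col arrays did. The change was -0.79 ± 0.21 (limma, adjusted p = 0.0394). Before scaling its signals overlapped, at 3430 and 2602 in ore15-1D and 3312 and 3855 in Col. TPS10 had levels of -0.83 and -0.53 in Col and -1.30 and -1.40 in ore15-1D, a change of -0.67 ± 0.18 (limma, adjusted p = 0.0428). The TPS10 signals before scaling lay closer together, at 508 and 505 in ore15-1D and 520 and 593 in Col. Its second probe, at chr1:22177724-22177783, gave -0.61 ± 0.22 and did not pass over all probes (limma, adjusted p = 0.0852).

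TPS11 had the largest change of the 7 genes in ore15-1D. Its levels were 1.33 and 1.98 in Col and 0.66 and 0.65 in ore15-1D, and the change was -0.997 ± 0.24 (limma, adjusted p = 0.0306). The 2 ore15-1D arrays were close together and the 2 Col arrays far apart, and against Col replicate 1 alone, which shared the slide, the difference was -0.67. TPS11 signals before scaling were also lower in ore15-1D (1971 and 2104) than in Col (2329 and 3384). The second TPS11 probe, at chr2:8111114-8111173, had levels of -1.85 and -1.30 in Col and -2.30 and -2.34 in ore15-1D, a change of -0.75 ± 0.22 that missed the threshold over all probes (limma, adjusted p = 0.0553). TPS9, a close relative of TPS8 and TPS10, had levels of -0.62 and -0.37 in Col and -0.74 and -0.77 in ore15-1D. Before scaling its signal too was higher in ore15-1D (747 and 784) than in Col (605 and 664). Its change of -0.26 ± 0.11 did not pass (limma, adjusted p = 0.124), with a 95% confidence interval from -0.56 to 0.03.

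All 7 genes had levels in ore15-1D that did not overlap those in Col, where this held for 80.6% of all genes tested. The 6 calls had adjusted p-values between 0.0306 and 0.0499, and none of them passed with slide as a fixed block. None passed without ore15-1D replicate 1, ore15-1D replicate 2 or Col replicate 2, and 1 of them, TPS11, passed without Col replicate 1, each of these fits having a single array left in 1 genotype. Against Col replicate 1 of the same slide the differences were 0.43 for TPS5, 0.37 for TPS6, -0.34 for TPS7, -0.63 for TPS8, -0.14 for TPS9, -0.52 for TPS10 and -0.67 for TPS11, the same in sign as with both Col arrays. The slide block and the fit without Col replicate 2 gave these same values, since Col replicate 2 shared no slide with ore15-1D. They are therefore not separate checks.

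**Figure D2:**
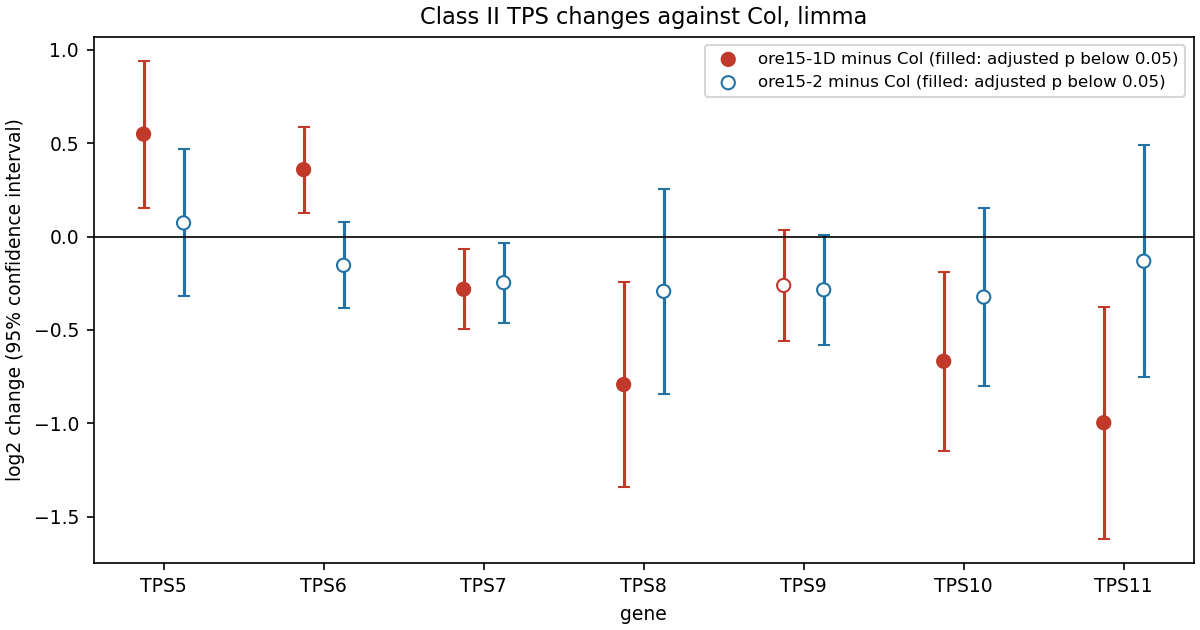
Log2 change of each class II TPS gene in ore15-1D (red) and ore15-2 (blue) against Col, with 95% confidence intervals of the limma fit, 2 arrays per genotype; filled points passed an adjusted p of 0.05. In ore15-1D 6 of 7 points are filled, with TPS5 and TPS6 above 0 and TPS7, TPS8, TPS10 and TPS11 below it, and in ore15-2 none is.

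A difference between genes taken within each array does not depend on how arrays are scaled to each other. The mean log2 level of TPS5 to TPS7 less that of TPS8 to TPS11, set to a mean of 0 over the Col arrays, was 0.83 and 0.95 in ore15-1D. It was 0.25 and -0.25 in Col and 0.15 and 0.15 in ore15-2. Both ore15-1D values lay above both Col values, and the ore15-2 values lay between the Col values. These are means over genes that did not all move alike, since TPS7 fell in ore15-1D while TPS5 and TPS6 rose, and the genes were grouped with their changes known.

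The comparison of ore15-2 with Col asks how the genes differ in a line known for loss of ORE15 function. ORE15 RNA itself gave -2.56 ± 0.67 in ore15-2 and did not pass (limma, adjusted p = 0.125). No class II TPS gene changed in ore15-2 (0 of 7 by limma; 1, TPS7, at an unadjusted p below 0.05), where 3.74% of all 20270 genes tested changed. Over all genes 4520 of 20270 had an unadjusted p below 0.05 in ore15-2 by limma. The median log2 change of the 7 genes was -0.25, against 0.01 over all genes. TPS7 gave -0.25 ± 0.08 (limma, adjusted p = 0.183), with levels of 1.15 and 1.18 in ore15-2, below both Col arrays and close to those of ore15-1D. The levels of TPS9 were -0.84 and -0.72 in ore15-2, also below both Col arrays, and its change was -0.28 ± 0.11 (limma, adjusted p = 0.235).

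The other members did not pass in ore15-2 at an unadjusted p below 0.05 either. TPS8 had levels of 1.78 and 1.63 and TPS10 of -1.22 and -0.80, and their changes were -0.29 ± 0.21 and -0.32 ± 0.18. TPS6 gave -0.15 ± 0.09. TPS11 had levels of 1.38 and 1.66, both between the 2 Col arrays, and its change of -0.13 ± 0.24 had a 95% confidence interval from -0.75 to 0.49. TPS5 gave 0.07 ± 0.15, with an interval from -0.32 to 0.47. These intervals do not show that the levels were alike: for TPS8, TPS10 and TPS11 they include falls of 0.84, 0.80 and 0.75 on the log2 scale. In 4 of 7 genes (TPS6 to TPS9) the ore15-2 and Col arrays did not overlap, where this held for 52.5% of all genes.

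Set directly against each other, ore15-1D and ore15-2 differed in 3 of the 7 genes, where 55.7% of all genes differed (26.1% higher and 29.6% lower in ore15-1D). TPS6 was higher in ore15-1D by 0.51 ± 0.09 (limma, adjusted p = 0.00954) and TPS5 by 0.48 ± 0.15 (limma, adjusted p = 0.0487), while TPS11 was lower, with a difference of -0.87 ± 0.24 (limma, adjusted p = 0.0333). In the fit over all probes the second TPS11 probe gave -0.64 ± 0.22 and missed the threshold (limma, adjusted p = 0.0638). The TPS5 probe missed it there too (limma, adjusted p = 0.0526). TPS7 and TPS9 gave -0.04 ± 0.08 and 0.02 ± 0.11 and did not pass, with 95% intervals from -0.25 to 0.18 and from -0.27 to 0.32. TPS8 (-0.50 ± 0.21) and TPS10 (-0.34 ± 0.18) did not pass either. The arrays of the mutants did not overlap in 5 of 7 genes, where this held for 85.3% of all genes. The mutants shared no slide, and with slide as a fixed block none of these differences passed.

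The 2 Col samples lay on different slides and were not alike. TPS8, TPS9, TPS10 and TPS11 were higher in Col replicate 2 by 0.33, 0.24, 0.30 and 0.65. TPS6 gave 0.03, TPS7 gave -0.11 and TPS5 gave -0.25. Over all genes this difference had a median of 0.02, with a 5th percentile of -0.40 and a 95th percentile of 0.89. Of 10 low-sugar and dark inducible genes 8 were higher in Col replicate 2, where 54.2% of all genes were higher. Their median was 0.73, led by BT2 (2.13) and DIN10 (1.03). Whether the slide or the leaves differed cannot be told apart from these arrays. Between the ore15-2 samples 6 of the 7 TPS genes were higher in replicate 2, from TPS7 (0.04) to TPS5 (0.33) and TPS10 (0.42). TPS8 gave -0.15, and 3 of the 10 low-sugar genes were higher there. The share over all genes was not counted for the ore15-2 samples, so these counts have no background to be read against.

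The rest of the trehalose pathway was read from lists of genes known for these roles. TPS1, the active class I synthase, fell in ore15-1D, from 1.10 and 1.20 in Col to 0.56 and 0.66, a change of -0.54 ± 0.13 (limma, adjusted p = 0.0288). Its levels in ore15-2 were 1.44 and 1.73, above both Col arrays, and that change of 0.43 ± 0.13 did not pass (limma, adjusted p = 0.149). Among TPP and trehalase genes 5 of 8 tested fell in ore15-1D and none rose, with a median of -0.996, where 22.0% of all genes fell. In the fit limited to genes well above background on all 6 arrays, 4 of 6 fell, none rose, and the median was -0.588. There 4388 of all 18577 genes fell. The list median was -0.742 under quantile normalization. Across settings it ranged from -1.35 (normexp with the 75th percentile) to -0.248 (normexp with quantile normalization). The trehalase gene TRE1 had levels of -1.85 and -1.23 in Col and -2.79 and -2.69 in ore15-1D, a change of -1.20 ± 0.28 (limma, adjusted p = 0.0285). Of the phosphatase genes TPPB (-2.09 ± 0.25), TPPH (-1.69 ± 0.31), TPPE (-0.79 ± 0.10) and TPPD (-0.38 ± 0.09) fell, the TPPB probe being well above background in 1 of the 2 ore15-1D samples, so that the size of its fall is uncertain. TPPA (0.15), TPPJ (-0.09) and TPPI, which was not well above background in ore15-1D, did not pass. The 5 falls became 2 with slide as a fixed block, 1 and 0 without ore15-1D replicate 1 and 2, 2 without Col replicate 2 and 0 after normexp with the 75th percentile. TPS1 passed in none of these, nor without Col replicate 1 or in the authors' deposited table. In ore15-2 none of the 8 passed (0 by limma; 3 at an unadjusted p below 0.05).

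**Figure D3:**
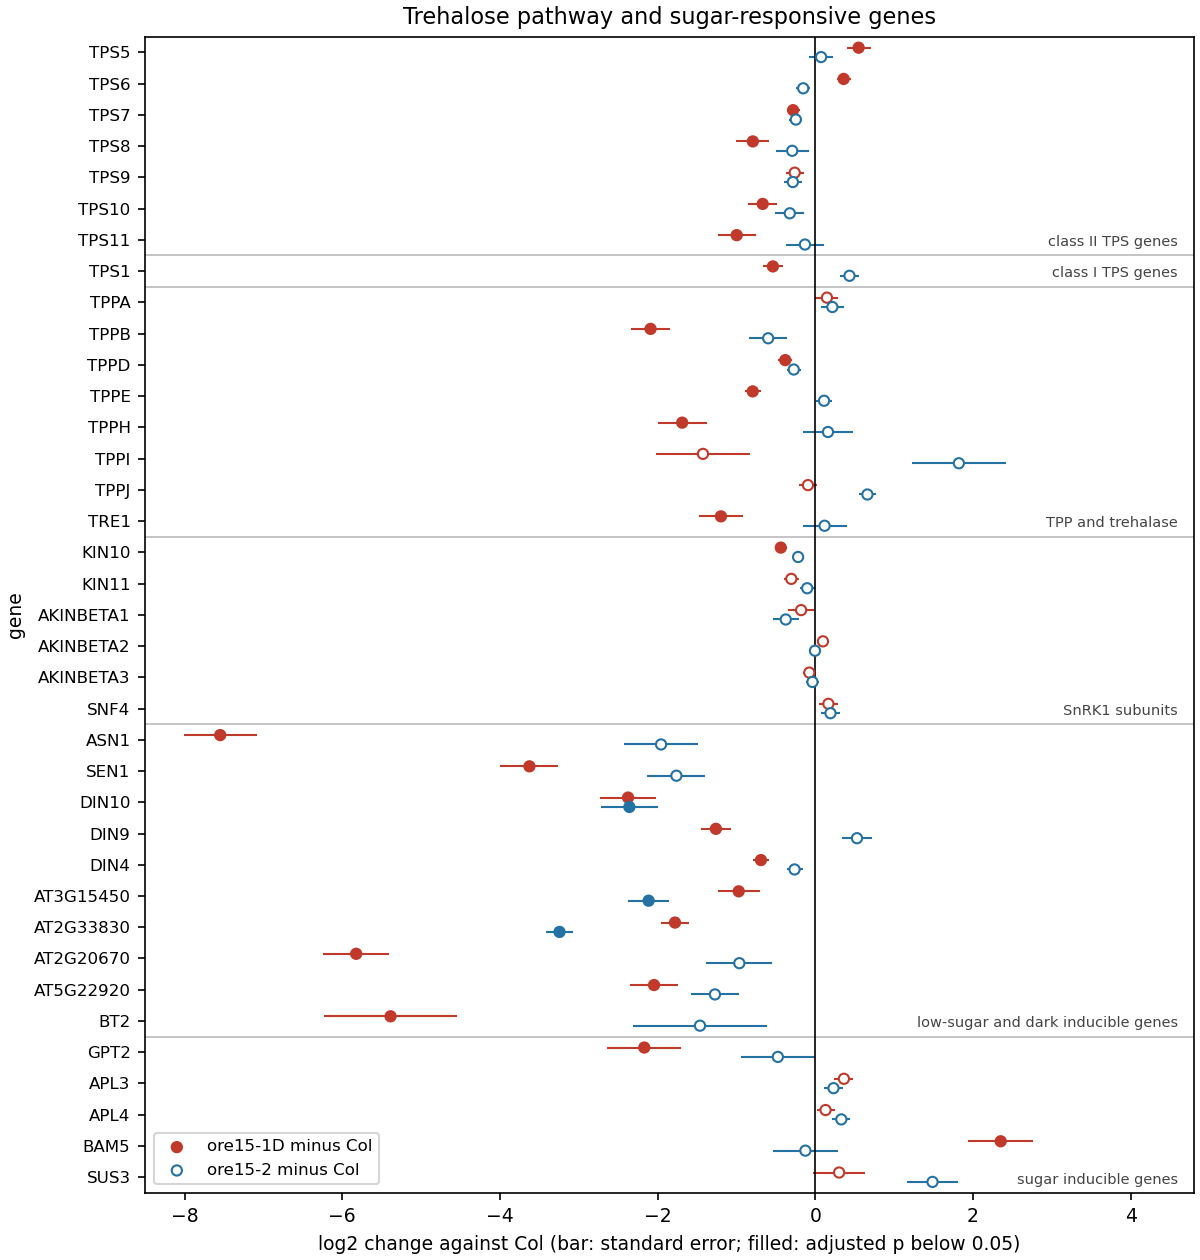
Log2 change against Col of the class II TPS genes, TPS1, the TPP and trehalase genes, SnRK1 subunits, and low-sugar and sugar inducible genes, in ore15-1D (red) and ore15-2 (blue), with standard errors of the limma fit; filled points passed an adjusted p of 0.05. In ore15-1D TPS1, TRE1 and 4 TPP genes lie below 0 and filled, as do all 10 low-sugar genes.

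TPPF and TPPG share their probes with the conserved upstream reading frame annotated in their own transcripts, and so do the group S1 bZIP genes. Such probes matched 2 loci and were left out of the fit by gene. In the fit over all probes, where 37.3% of probes passed in ore15-1D (20.6% lower and 16.7% higher), TPPF (-0.68 ± 0.10; limma, adjusted p = 0.0126) and TPPG (-0.53 ± 0.12; limma, adjusted p = 0.0305) fell. The bZIP factors of group S1 act with SnRK1 on genes of low energy. There bZIP1 (-0.79 ± 0.16) fell and 2 of 3 bZIP2 probes and 1 of 2 bZIP53 probes were lower, while 1 of 2 bZIP44 probes was higher (1.34 ± 0.22) and bZIP11 gave 0.10 ± 0.18. No probe of these 7 genes passed in ore15-2 (0 by limma), where 2.87% of all probes did.

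Of the SnRK1 subunits, 1 of 6 fell in ore15-1D and none rose, a share no higher than the 22.0% of all genes that fell. KIN10, the catalytic subunit that phosphorylates targets under low energy, had levels of 0.29 and 0.27 in Col and -0.18 and -0.13 in ore15-1D, a fall of 0.44 (SE 0.08; limma, adjusted p = 0.0164). This call was lost with slide as a fixed block, in each fit without 1 ore15-1D or Col array, in the authors' deposited table and after normexp with the 75th percentile. The other catalytic subunit, KIN11, gave -0.30 ± 0.10 (limma, adjusted p = 0.06). None of the 6 passed in ore15-2 (0 by limma; 1 at an unadjusted p below 0.05), with KIN10 at -0.22 ± 0.08. The group C bZIP genes bZIP9, bZIP10, bZIP25 and bZIP63 gave no call in either mutant (0 of 4 by limma, with 1 and 0 at an unadjusted p below 0.05). Over all genes 10684 of 20272 in ore15-1D and 4520 of 20270 in ore15-2 had an unadjusted p below 0.05.

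Genes known to be induced by low sugar or dark were lower in ore15-1D in all 10 cases tested, with a median of -2.21, where 22.0% of all genes were lower. ASN1, an asparagine synthetase gene, had levels of 0.46 and 1.20 in Col and -6.21 and -7.23 in ore15-1D, the last not well above background, so the size of its fall is uncertain (limma, adjusted p = 0.00374). Other large falls were those of AT2G20670 (-5.82 ± 0.42), BT2 (-5.39 ± 0.85), a gene repressed by sugar, and SEN1 (-3.63 ± 0.37), a senescence marker. The list was chosen with earlier results of these data known, so its direction is not independent evidence. In ore15-2 AT2G33830 (-3.24 ± 0.18), DIN10 (-2.36 ± 0.36) and AT3G15450 (-2.11 ± 0.26) fell, 3 of 10, where 1.57% of all genes were lower, and no class II TPS gene fell there. Without ore15-1D replicate 1 or 2 the calls among low-sugar genes in ore15-1D numbered 3 and 4, with all 10 changes still below 0, and they were 0 after normexp with the 75th percentile. The 3 falls in ore15-2 became 0 with slide as a fixed block, without a filter on background, with only the 2 genotypes compared, after normexp with the 75th percentile, and without either ore15-1D array, Col replicate 1 or ore15-2 replicate 2. They were 0 with the replicate block too.

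Of 5 genes listed as sugar inducible, BAM5, a beta-amylase gene, rose in ore15-1D by 2.35 ± 0.41 and GPT2 (-2.17 ± 0.47), a plastid glucose 6-phosphate transporter gene, fell, while APL3 (0.36), APL4 (0.13) and SUS3 (0.30) did not pass. With 18.6% of all genes higher and 22.0% lower, 1 of 5 in each direction is near the share over all genes. None of the 5 passed in ore15-2 (0 by limma; 2 at an unadjusted p below 0.05). Neither BAM5 nor GPT2 passed without ore15-1D replicate 1 or 2, GPT2 did not pass without either Col array or with slide as a fixed block, and neither passed after normexp with the 75th percentile.

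Markers of cell types were read in the same fit, where 22.0% of all genes fell in ore15-1D and 18.6% rose. In ore15-1D 3 of 5 vascular markers fell, SUC2 (-1.28 ± 0.25) and APL (-0.93 ± 0.15) of the phloem and XCP2 (-0.81 ± 0.10) of the xylem. XCP1 (-0.32 ± 0.13) and ATHB8 (0.39 ± 0.12) did not pass, and both ore15-1D arrays lay above both Col arrays for ATHB8. The summed signal of the vascular list was 7.81 to 7.82 in ore15-1D against 11.9 to 13.4 in Col and 10.9 to 13.9 in ore15-2. All 5 mesophyll markers fell, from LHCA1 (-0.51 ± 0.11) to CA1, with a change of -1.70 ± 0.22. Of 6 root markers NRT2.1 and IRT1, both not well above background in ore15-1D, and PIP2;4 fell and SHR rose, while COBL9 (-0.38) and SCR (0.30) did not pass. The summed root signals were 3.33 to 3.52 in ore15-1D, 2.88 to 3.09 in Col and 2.59 to 2.77 in ore15-2. SHR and SCR had the highest signals of this list, so the sum mostly follows them and not the other root markers, whose changes in ore15-1D were all below 0. The floral marker SEP3 rose in ore15-1D and fell in ore15-2, where PI rose, and summed floral signals were 0.148 to 0.174, 0.0968 to 0.120 and 0.136 to 0.177 in ore15-1D, Col and ore15-2. CLV1, which alone of 5 meristem markers was measured, fell in ore15-1D, with sums of 3.67 to 3.90 there, 6.22 to 6.79 in Col and 5.87 to 6.91 in ore15-2. Neither tested seed marker passed in either mutant, and the seed sums were 0.0298 to 0.0325 in ore15-1D, 0.0346 to 0.0984 in Col and 0.0699 to 0.0702 in ore15-2. The part of these cell types in the TPS values was not tested.

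Among the 7 genes, TPS7 and TPS9 had the most alike profiles over the 6 arrays, with a root mean square difference of 0.11 between log2 levels centred on each gene's mean. TPS5 and TPS6 came next (0.14), and TPS5 and TPS11 were the least alike (0.73). Measured the same way against 18576 loci that were well above background on all arrays, the nearest profile to TPS11 was PR5 (0.05) and that to TPS9 was CRF5 (0.03). AT4G22190 was nearest to TPS5 (0.03), AT4G35380 to TPS6 (0.03), AT5G56590 to TPS7 (0.03), AT4G38410 to TPS8 (0.07) and AT3G16330 to TPS10 (0.02). With 6 arrays of 3 genotypes such nearness is a description only.

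**Figure D4:**
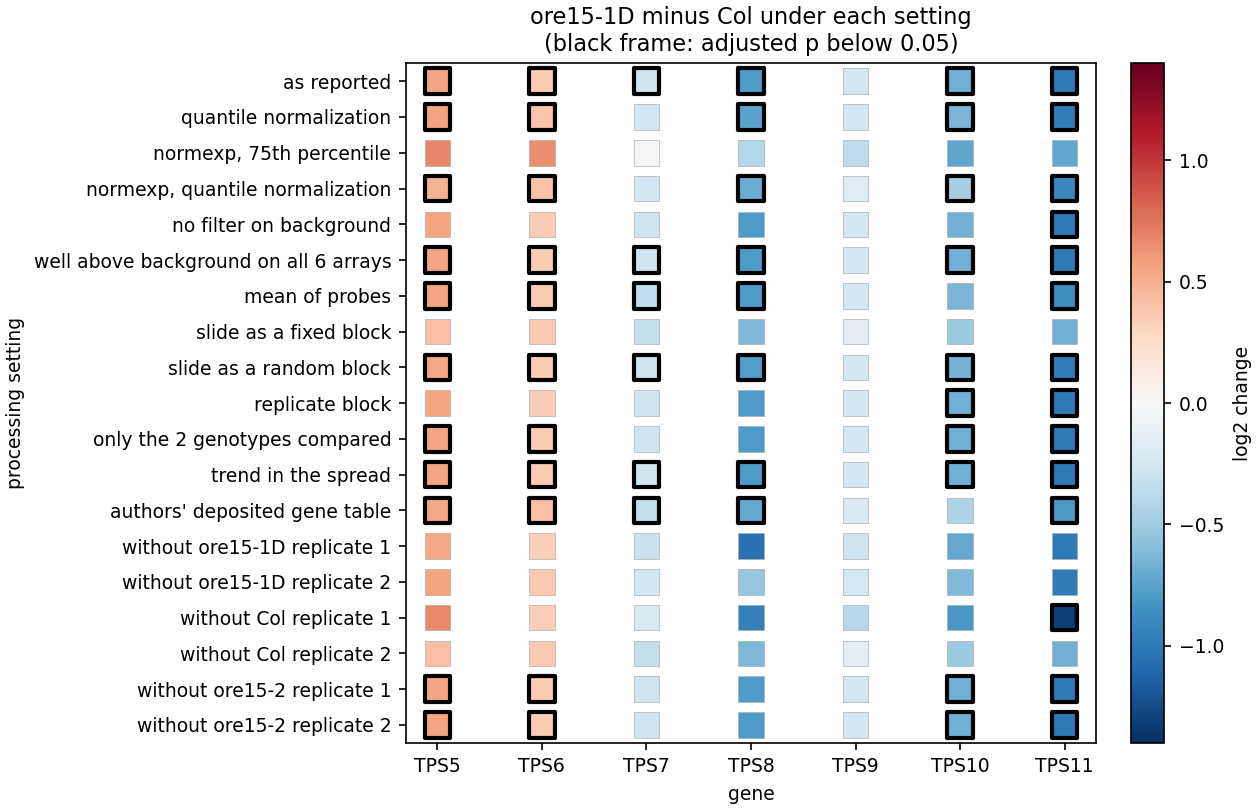
Log2 change of each class II TPS gene in ore15-1D against Col (colour) under each processing setting (rows), with a black frame where the adjusted p was below 0.05. TPS5 and TPS6 are above 0 and TPS8 to TPS11 below 0 in every row, TPS7 is at 0.01 after normexp with the 75th percentile, and 4 fits that leave out 1 ore15-1D or Col array frame at most 1 gene.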

How the data were processed

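Total RNA was labelled with Cy3, per the labels, and the submitters' processing notes name Agilent Feature Extraction 11.5. The deposited scanner files give the intensity of each spot on a linear scale, and their processed signal is background-subtracted, per the file headers. A log2 gene table that the authors deposited, of unknown scaling and centring, served as an alternative only. Probe positions and loci (TAIR10, by BLASTN per its notes) are those of the deposited element table; symbols came from RefSeq (TAIR10.1).

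Here 1417 control spots and outlier spots were left out, spots of a probe averaged, and log2 signals set relative to each array's 75th percentile. Of 43603 probes 37257 matched 1 locus, and the brightest stood for a locus. The 20276 loci that both arrays of some genotype read well above background were fitted with limma 3.58.1 in R 4.3.3 on all 6 arrays (3 residual and 1.8 prior degrees of freedom), with two-sided tests and Benjamini-Hochberg adjustment at 0.05; the script was tested on simulated data. Replicate arrays correlated at 0.987 to 0.995. The number of arrays limits the precision, and p-values measure the spread between samples that the design text calls independent. Both arrays of each mutant shared a slide, so any difference between slides enters that spread through Col alone.

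Members and lists were chosen with earlier results of these data known. Named genes are the 7 members, TPS1, TRE1 and KIN10, up to 4 passing members of each list with the largest change, and the nearest profile to each member; any other name was chosen with its value known. Alternatives were other scalings, background corrections, filters, probe rules, blocks, sample sets, a trend in the spread, the authors' table and leaving out each array. With slide as a fixed block, ore15-1D was set against Col replicate 1 alone and ore15-2 against Col replicate 2 alone. That block and the fit without the other Col array are therefore not separate checks. Normexp used the median spot signal (offset 50). The fit over all probes was added after seeing the data.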

Additional observations from a re-analysis of the deposited data

How the results depend on the processing

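With only 2 arrays per genotype the calls depend on the fit. The 6 class II TPS calls in ore15-1D became 0 after normexp with the 75th percentile, 1 without a filter on background, 0 with slide as a fixed block and 2 with the replicate block; they ranged from 0 to 4 over fits without 1 array, and were 4 to 6 otherwise. Calls over all genes there were 0 after that normexp setting, 3884 with slide as a fixed block, and 811 to 8673 without 1 array. Quantile normalization gave 4657 higher and 3687 lower, against 3769 and 4468, 4654 and 3375 in the authors' deposited table, normexp with quantile normalization 4734 and 3566, and no filter 2713 and 5349 with a median of -0.24. In ore15-2 no member passed under any setting run, while calls over all genes, 758 as reported, were 0 after normexp with the 75th percentile (median -0.21), 1207 after normexp with quantile normalization, 0 without a filter, 1 with slide as a fixed block, 3 with the replicate block, 0 with only the 2 genotypes compared, 1153 with a trend in the spread, and 0 to 1344 without 1 array. Between the mutants the 3 member calls became 0 after normexp with the 75th percentile, 1 without a filter, 0 with slide as a fixed block and 0 to 2 without 1 array; calls over all genes (11288) became 0 after that normexp setting and 0 with slide as a fixed block, and 4773 to 11415 without 1 array. Reversed signs were TPS7 in ore15-1D (0.0114 after normexp with the 75th percentile); in ore15-2 under the same setting TPS6 (0.12), TPS7 (0.11), TPS8 (0.0726) and TPS11 (0.24), and in fits without 1 array, which ranged in ore15-2 from -0.0914 to 0.24 for TPS5 (reversed without Col replicate 2 or ore15-2 replicate 2) and from -0.455 to 0.19 for TPS11 (reversed without Col replicate 2 or ore15-2 replicate 1), and between the mutants from -0.0370 to 0.0841 for TPS9 (reversed without ore15-2 replicate 1). Fits without 1 array hold fewer samples; the cause of the other differences was not tested. The labels give the genotypes the same replicate numbers but nothing pairs them: differences between replicates 1 and 2 over all genes correlated at -0.09, 0.13 and -0.01 between genotypes, so the replicate block is given as a fit only.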
